A study of Mus musculus with 10 samples.

Results

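Regulators of tail outgrowth and somite formation were followed in RNA of whole mouse embryos. They are the homeobox genes *Cdx1*, *Cdx2* and *Cdx4*, the T-box genes *T* (Brachyury) and *Tbx6*, the basic helix-loop-helix (bHLH) genes *Msgn1*, *Hes7*, *Mesp1* and *Mesp2*, and the co-repressor gene *Ripply2*. They were chosen by gene symbol and are 10 of 24302 genes listed. RNA was sequenced from C57BL/6 embryos at embryonic day 11.5, of which 3 were wildtype, 3 were heterozygous for a deletion of *Wwc2* and 4 were homozygous knockouts. *Wwc2* encodes a scaffold protein of the Hippo pathway. The allele was deleted with Cre driven by the *Zp3* promoter, which is active in the growing oocyte, so the deletion is inherited by all cells of the embryo and is not specific to the tail. The values used are the authors' means over all 10 embryos of read counts divided by a size factor for each library (mean normalized count). These means mix the genotypes, and the genotypes are therefore not compared here. The mean normalized count of *Wwc2* was 2117, which as a mean over all genotypes does not check the labels.

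In the elongating embryo, progenitors of the tailbud supply the presomitic mesoderm, which is cut into somites in step with an oscillating clock. CDX proteins and Brachyury keep the progenitors and axis extension going. Tbx6 and Msgn1 commit cells to the paraxial mesoderm, Hes7 is a core repressor of the clock, and Mesp2 and Ripply2 set the position of the next somite border. All of this takes place in the tail end of the embryo, which is a small part of a whole-embryo sample.

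The 10 genes lie on 8 chromosomes in GRCm38 (the same build as mm10). *Cdx2* is at chr5:147300805-147307270 (minus strand) and *Cdx4* at chrX:103321398-103330592 (plus strand), each with 3 exons. *T* is at chr17:8434423-8442496 (plus) and *Tbx6* at chr7:126781483-126785560 (plus), each with 8 merged exons. *Msgn1*, a gene of 1 exon, is at chr12:11208360-11208972 (minus), *Hes7* at chr11:69120404-69124055 (plus) and *Ripply2* at chr9:87015537-87019917 (plus). *Mesp1*, on the minus strand from 79792241 to 79793788, and *Mesp2*, on the plus strand from 79810727 to 79813439, each have 2 exons and are 16938 bases apart. Their longest identical stretch is shown because it bears on whether reads could be given to the wrong one of the pair. It is 42 bases long and lies in the coding part of exon 1 of both genes, at chr7:79793148-79793189 (minus strand) in *Mesp1* and at chr7:79811276-79811317 (plus strand) in *Mesp2*.
Mesp1 and Mesp2: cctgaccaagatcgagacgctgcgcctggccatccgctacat
The reads were 80 bases long. Transcripts were compared in the direction of transcription only. No window of 80 bases in any transcript of the 10 genes was shared with another gene of GENCODE release M21. A full-length read of known strand without mismatches could therefore be told apart, in all of them, from annotated transcripts of other genes. The rest of the genome, to which the reads were aligned, was not searched. The longest shared stretches of the others were 57 bases in *Hes7*, 34 in *Cdx2*, 27 in *Cdx1*, 26 in *Cdx4*, 23 in *Tbx6*, 21 in *T* and 20 in *Ripply2*, and *Msgn1* shared none of 20 bases or more. *Hes7* was the only member whose exons overlapped those of another gene, 9130213A22Rik on the opposite strand. The overlap was 234 bases or 12.9% of the exon length of *Hes7*. Reads within it could be told apart only by strand, and the strand setting of the counting is not known.

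The 250 bases before the start of *T*, *Cdx4*, *Mesp2* and *Ripply2* are given from RefSeq promoters of GRCm38, because they include the highest and the lowest of the 10 genes and both genes of the somite border. Capitals mark matches to 4 motifs searched on both strands, TTTATG for CDX, GGTGTGA for T-box proteins, CTTTGAT for TCF/LEF and GTGGGAA for the Notch effector CSL. The windows are chr17:8434173-8434422 (plus) for *T*, chrX:103321148-103321397 (plus) for *Cdx4*, chr7:79810477-79810726 (plus) for *Mesp2* and chr9:87015287-87015536 (plus) for *Ripply2*.
T: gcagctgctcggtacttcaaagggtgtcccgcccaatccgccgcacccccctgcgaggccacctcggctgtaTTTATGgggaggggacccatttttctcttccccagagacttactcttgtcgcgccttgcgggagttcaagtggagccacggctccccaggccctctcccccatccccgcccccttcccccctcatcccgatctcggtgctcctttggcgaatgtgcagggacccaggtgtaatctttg
Cdx4: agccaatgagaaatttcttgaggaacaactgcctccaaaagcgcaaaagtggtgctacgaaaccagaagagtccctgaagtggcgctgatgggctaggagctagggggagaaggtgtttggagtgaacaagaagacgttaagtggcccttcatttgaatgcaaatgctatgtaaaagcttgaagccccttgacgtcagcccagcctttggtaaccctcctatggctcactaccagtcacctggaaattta
Mesp2: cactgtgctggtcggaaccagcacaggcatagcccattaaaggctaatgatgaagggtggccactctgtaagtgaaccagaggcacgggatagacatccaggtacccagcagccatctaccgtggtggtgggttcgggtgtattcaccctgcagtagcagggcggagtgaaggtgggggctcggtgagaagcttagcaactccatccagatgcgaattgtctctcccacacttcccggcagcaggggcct
Ripply2: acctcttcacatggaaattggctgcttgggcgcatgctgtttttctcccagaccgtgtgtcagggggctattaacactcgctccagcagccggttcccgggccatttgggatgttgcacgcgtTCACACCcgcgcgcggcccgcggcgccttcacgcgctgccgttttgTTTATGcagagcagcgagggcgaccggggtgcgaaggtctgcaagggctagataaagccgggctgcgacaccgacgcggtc
A promoter was found for 9 of the 10 genes, with none for *Cdx1*. The search covered 250 bases before and 50 bases after each RefSeq start. For *Cdx2*, *Msgn1*, *Hes7* and *Mesp1* this start lies inside the gene span given above, which is from GENCODE. The bases searched before the start of *Mesp1* are chr7:79793591-79793840, and its GENCODE span reaches to 79793788. The matches in *Mesp1* therefore lie inside that span. The CDX motif was present in *T*, 178 bases before the start, in *Msgn1* (85 bases), *Hes7* (223 bases) and *Ripply2* (81 bases), and in 11.9% of all 32851 promoters. The T-box motif was present in *Ripply2*, 127 bases before the start, and in *Mesp1*, 5 bases after it, and in 3.98% of all promoters. The TCF/LEF motif was present in *Msgn1*, 203 bases before the start, and *Mesp1*, 31 bases before it, and in 3.73% of all promoters. The CSL motif was present in *Msgn1*, 114 bases before the start, and *Hes7*, 180 bases before it, and in 6.38% of all promoters. *Cdx2*, *Cdx4*, *Tbx6* and *Mesp2* held none of the 4. A match describes letters in the window and not a bound site.

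All 10 genes were detected, and all 10 were low. Their median mean normalized count was 7.28, against 306.6 for the 20665 genes above 0, and every member lay under that median. Only 4 of the 10 reached a mean of 10, against 15909 of the 20665 genes above 0. Together the 10 members summed to 247 normalized counts, or 0.000966% of the 2.56e+07 summed over all genes. Genes of the tissues that a whole embryo holds at this stage were read, with mean normalized counts of 136056 for the embryonic globin *Hbb-y* and 1958 for the heart myosin gene *Myh6*, the highest and the lowest of 9 checked. In whole-embryo RNA, fewer cells of a type and less RNA per cell cannot be told apart.

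*T*, which encodes the factor that defines mesoderm progenitors and notochord, was the highest member, with a mean normalized count of 92.9 and 40.1 per kb of merged exons. *Cdx2*, the CDX gene also known from trophoblast and gut, followed with 59.5, or 26.3 per kb. *Tbx6* had a mean of 38.2, or 21.2 per kb, and the clock gene *Hes7* one of 31.4, or 17.3 per kb. These 4 genes formed an upper group on the scale per kb, at percentiles 40.8, 36.5, 34.5 and 32.7. The reference is the 19339 genes above 0 with a known length. The other 6 lay at percentile 23.3 or lower.

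**Figure D1:**
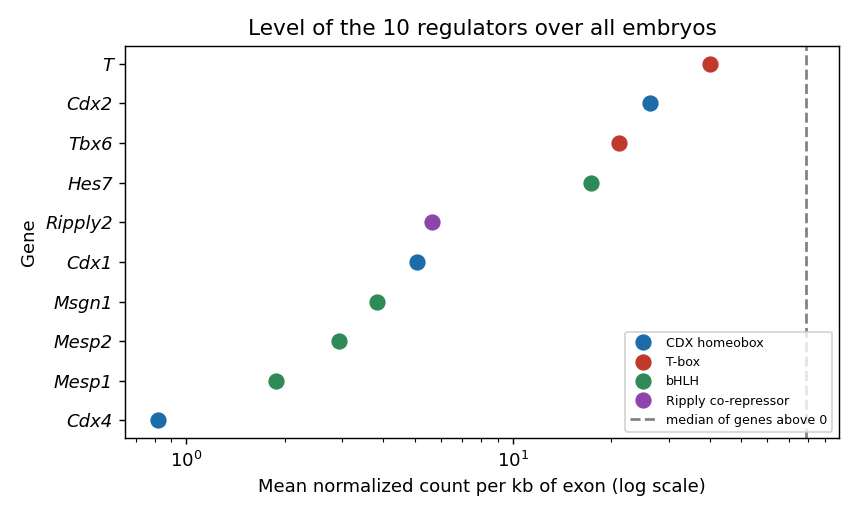
Mean normalized count per kb of merged exon (log scale) for the 10 genes, 1 point a gene coloured by protein family. The dashed line is the median of genes above 0 with a known length. *T* at 40.1 and *Cdx4* at 0.819 are the ends of the range, and all points lie left of the line at 78.9.

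Among the lower genes, *Ripply2*, which closes the segmentation programme by acting on T-box proteins, had a mean normalized count of 4.16, or 5.67 per kb. *Cdx1* had a mean of 8.87, or 5.07 per kb. *Msgn1*, a master gene of the presomitic mesoderm, had 2.35, or 3.83 per kb. *Mesp2* had 5.70, or 2.93 per kb, and its paralog *Mesp1*, known from the earliest heart and mesoderm progenitors, had 2.40, or 1.89 per kb. *Cdx4* was lowest, with 1.61, or 0.819 per kb, so that *T* was 49.0-fold higher per kb. Within the lower 6, the order depends on length: by mean normalized count it was *Cdx1*, *Mesp2*, *Ripply2*, *Mesp1*, *Msgn1*, *Cdx4*. The means of *Cdx1*, *Msgn1*, *Mesp1* and *Cdx4*, and the orders of these 6 genes, rest in part on a few libraries, as their reads by library show. When any 1 library was left out, the mean of *Mesp2* moved at most 1.158-fold and that of *Ripply2* at most 1.102-fold.

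The digits of a low pooled mean hold the reads of each library, because 1 read adds a fixed amount set by its library's size factor. The 684 genes with exactly 1 read in all gave 10 such amounts, 1 for each library, and size factors from 0.616 to 1.23. The libraries are lettered A to J here, from the highest size factor to the lowest. Nothing in the values used ties a letter to an embryo or genotype, so the letters are libraries only, and no test was made over them. Each of the 3377 genes with a mean of at most 3 gave exactly 1 set of whole reads. For the 6 lower members the sets kept came within 0.495 units of the last printed digit of the mean. The search first gave 2 sets for *Cdx1*, and the second, of 92 reads with 2 in H and 6 in I, missed the mean by 3.05 such units and was not kept. The 4 higher members could only be bounded, at 573 to 1142 reads in all for *T*, 367 to 731 for *Cdx2*, 235 to 469 for *Tbx6* and 193 to 386 for *Hes7*.

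*Cdx1* had 81 reads in the 10 libraries (exact Poisson 95% interval 64.3 to 100.7). From A to J these were 4, 0, 9, 2, 3, 0, 4, 21, 32 and 6 reads. Libraries H and I held 65.4% of them, and B and F had none. *Cdx4* had 15 reads (8.40 to 24.7), which from A to J were 0, 1, 0, 0, 1, 0, 1, 7, 5 and 0. Again H and I held most, 80% of the reads, and 5 libraries had none. *Mesp1* had 21 reads (13.0 to 32.1), which from A to J were 1, 0, 2, 0, 0, 0, 2, 5, 8 and 3. H and I held 61.9% of these. The intervals cover counting error only, and reads without molecular identifiers are not independent molecules.

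The other 3 lower genes were distributed otherwise. *Msgn1* had 19 reads (11.4 to 29.7), from A to J 2, 0, 1, 0, 0, 0, 8, 0, 1 and 7, so that G and J held 78.9% and H and I 5.26%. *Mesp2* had 56 reads (42.3 to 72.7), from A to J 0, 8, 2, 4, 4, 9, 12, 7, 8 and 2. The 2 libraries with most of them, G and F, held 37.5%, and only A had none. *Ripply2* had 42 reads (30.3 to 56.8), from A to J 2, 6, 3, 5, 6, 8, 4, 1, 4 and 3, and was read in all 10 libraries. The reads of *Mesp1* and *Mesp2* did not all lie in the same libraries, with B and F at 0 for *Mesp1* and at 8 and 9 for *Mesp2*. A count of 0 allows up to 3 reads, which is 2.44 normalized counts in library A and 4.87 in library J.

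**Figure D2:**
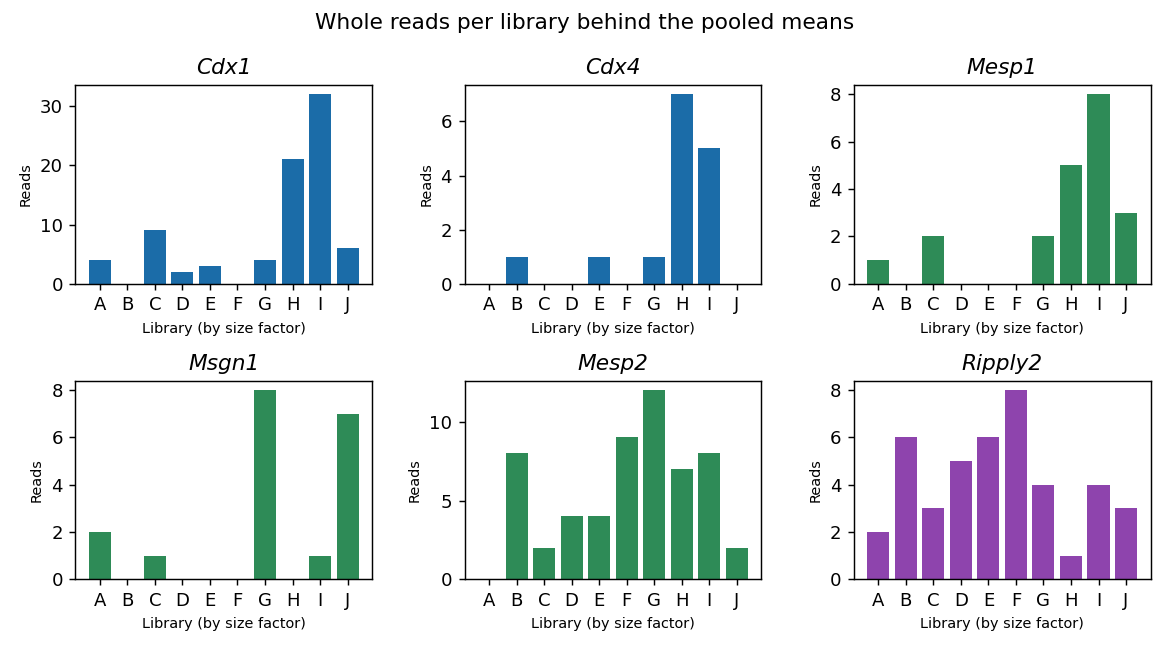
Whole reads (vertical axis, a scale of its own in each panel, from 0) in libraries A to J, ordered by falling size factor, for the 6 lower genes. *Cdx1*, *Cdx4* and *Mesp1* have their tallest bars at H and I, *Msgn1* at G and J, and *Mesp2* and *Ripply2* are spread over most libraries.

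Some of the low means rested on 1 or 2 libraries. Without library H the mean normalized count of *Cdx4* was 0.943 in place of 1.61, and without H and I it was 0.352. The level of *Cdx4* thus depends on both. Reads of *T* were not resolved by library, so the distance between the 2 genes without H and I is not known. Leaving out I took *Cdx1* from 8.87 to 5.82, and leaving out H and I took it to 3.71. By mean normalized count *Cdx1* was then the third of the 6, under *Mesp2* (5.04) and *Ripply2* (4.50). Without J the mean normalized count of *Msgn1* was 1.35 in place of 2.35. On the scale per kb *Msgn1* then had 2.195, under *Mesp2* (3.07). *Mesp1* went from 2.40 to 1.20 without H and I. Neighbours in the order per kb changed places between libraries. *Ripply2* was higher than *Cdx1* in 7 of 10 libraries, *Cdx1* higher than *Msgn1* in 5 (both at 0 in 2), *Msgn1* higher than *Mesp2* in 4, *Mesp2* higher than *Mesp1* in 5 and *Mesp1* higher than *Cdx4* in 6 (both at 0 in 2).

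Reads of other low genes were uneven between libraries as well. Of the 1126 searched genes with at least 10 reads, the median share in the 2 libraries with most reads was 47.4% (5th to 95th percentile 33.3% to 76.0%). The median share in H and I was 20% (0% to 68.0%), and 95 genes, or 8.44%, had more than 60% there. Over all 3377 searched genes H and I held 25.2% of 28042 reads. These genes had 10 to 33 reads each, as *Cdx4*, *Msgn1* and *Mesp1* did, whereas *Ripply2*, *Mesp2* and *Cdx1* had more and cannot be set beside them. *Cdx4* and *Msgn1* lay above the 95th percentile for the share in 2 libraries, and *Mesp1* below it. For the share in H and I, *Cdx4* alone of the 3 lay above the 95th percentile. Libraries H and I were singled out after their reads were seen, so these shares are descriptions and no test was made. The gut endoderm gene *Lgals4* had 37 reads, of which H and I held 18.9%. The part of gut, trophoblast or other tissue in the reads of *Cdx1* and *Cdx2* was not tested.

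Beside their own families the members were middle to low. Among 6 ParaHox genes, *Cdx2* was the third per kb, under *Gsx1* (49.5) and *Gsx2* (39.1), regulators of neural progenitors. *Cdx1* followed, then the pancreas gene *Pdx1* (1.48), with *Cdx4* last. *T* was the tenth and *Tbx6* the thirteenth of 17 T-box genes, between *Tbx2* (530 per kb) and *Tbx19* (0.303 per kb). The neighbours of *T* were *Eomes* (43.1 per kb) and *Tbr1* (33.1), and those of *Tbx6* were *Tbx20* (27.7) and *Tbx22* (8.52). *Hes7* was the seventh of 9 *Hes* and *Hey* genes, after *Hey2* (90.5 per kb) and before *Hes3* (11.9), with *Hes6* (1254) highest and *Hes2* (6.50) lowest. *Ripply2* was under *Ripply3* (63.9 per kb) and *Ripply1* (18.0).

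Lists of genes that work with the members in the tail had higher medians per kb. Of 12 tailbud and axial progenitor genes, all reached a mean of 10, with a median of 72.9 per kb, from *Fgf4* (4.45 per kb) to the retinoic acid-degrading enzyme gene *Cyp26a1* (144). Of 14 clock genes of the Notch, Wnt and FGF pathways, all reached 10, with a median of 362 per kb, from *Spry4* (93.4) to *Dusp6* (797). These pathways are also used in many other tissues of the embryo. Of 14 genes of the somite border and formed somite, all reached 10, with a median of 221 per kb, from *Ripply1* to *Efnb2* (500). All of these lists were read in whole-embryo RNA, and the part of the tail in their levels was not tested. The members' own median was 5.37 per kb and that of all genes above 0 with a known length was 78.9.

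Lists of genes used as markers of other sites of *T*, *Cdx1* and *Cdx2* expression were read as well. Whether their reads came from those sites alone was not tested. Of 6 notochord genes, 5 reached a mean of 10, with a median of 56.3 per kb, from *Noto* (0.188) to *Nog* (207). *Noto*, the notochord homeobox gene, had 3 reads in all, 1 in D and 2 in G. Of 5 gut endoderm genes 4 reached 10, with a median of 12.2 per kb, from *Lgals4* (1.80) to *Hnf4a* (39.9). Of 6 trophoblast genes, all reached 10, with a median of 27.9 per kb, from *Elf5* (3.17) to *Tpbpa* (3250), a spongiotrophoblast gene. These are means over all 3 genotypes, whose spread between embryos was not read for *Tpbpa* or *Cdx2*, so a few embryos may hold much of a level. These genes were read in the same means as the members, and their part in the levels of *T* and *Cdx2* was not tested.

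**Figure D3:**
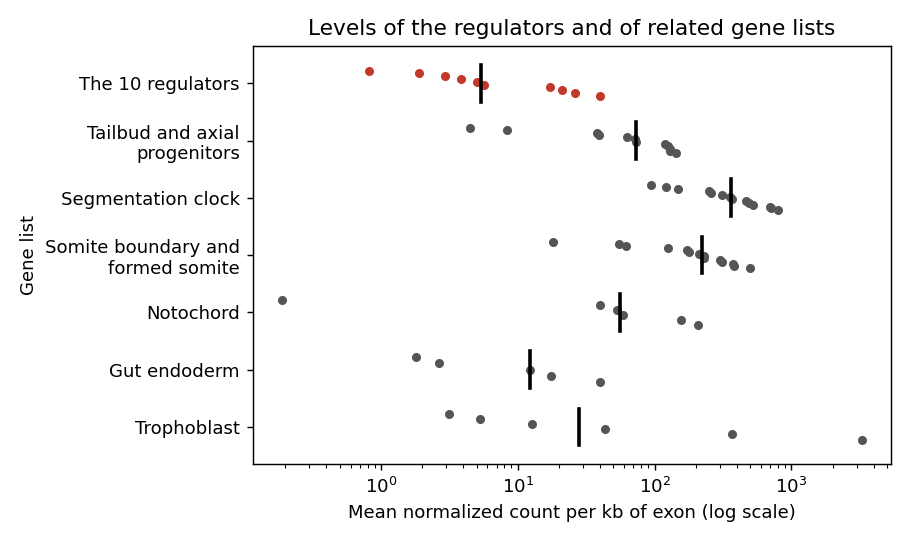
Mean normalized count per kb of merged exon (log scale) for the 10 regulators and 6 gene lists, 1 point a gene, with a bar at each list's median. The regulators' median of 5.37 is the lowest of those plotted, and the clock genes' median of 362 is the highest.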

How the data were processed

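Whole-embryo RNA of 10 mouse embryos was read from libraries made with a directional poly(A) kit, 80 bases to a read. According to the methods and processing notes, the authors trimmed reads with Trimmomatic 0.33, aligned them to mm10 with HISAT2, sorted them with SAMtools, counted them per gene with HTSeq and fitted DESeq2. Other versions and the strand setting are not given in the sources used here. The deposited signal is the authors' mean normalized count over all embryos, in 2 tables that differ by at most 4.79e-09 of a value. The other columns hold the authors' comparisons of genotypes (fold changes, errors, p-values) and were not used, so the planned count test was not run, since no column used gives counts of single embryos. Levels were divided by merged exon length (GENCODE M21), known for 22570 genes, and ranked among genes above 0. Ranks per kb were among the 19339 genes above 0 with a known length.

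Whole reads were searched as all sets of reads for 10 libraries that sum to a mean of 15 significant digits. This step was added after the data were seen, as were the limit of a mean of 3, the last-digit filter, the extra genes searched, libraries H and I with the limit of 60%, and the motifs. The search was tested on simulated means made from the same amounts per read that it then used, so error in these amounts was not tested. The summed normalized count was 2.56e+07 per embryo on average, and depth per embryo was not read. The members and gene lists were chosen with earlier results of these data known. Genes named are all members, the highest and the lowest of each list per kb, and the members' neighbours within a family. Named outside this rule were *Wwc2*, 9130213A22Rik, and *Tbx10* and *Tbx21*, which were among the extra genes searched. Alternatives were the other table, other genes to rank against, the longest transcript, no division by length and, added after the data were seen, a wider tolerance and leaving out libraries. Python 3.11.15, numpy 2.4.6, pandas 2.3.3 and scipy 1.17.1 were used.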

Additional observations from a re-analysis of the deposited data

How the results depend on the processing

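Without division by length, 5 of the 10 members kept their place in the order. With the longest transcript in place of merged exons, all 10 kept it, and the level per kb of *T* was 45.4. By mean normalized count, with no division by length, *T* was at percentile 38.4 of genes above 0 and 47.6 of all genes listed, *Cdx4* at 13.3 and 26.3, and *Cdx2* at 35.1 of genes above 0 and 15.7 of genes of at least 10. With the wider tolerance, chosen after the data were seen, *Cdx1* had a second set of 92 reads beside that of 81, with 2 reads in H and 6 in I, so the concentration of its reads in H and I rests on the last-digit filter. The other 5 lower members had the same single set under both. Other ways to test between genotypes (DESeq2, no filter, leaving out each embryo) were not run, because no such test was made. No paired analysis was possible because the means pool all embryos. The 6 lower members rest on 15 to 81 reads each. Both this number and the uneven spread of reads between libraries limit their precision.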

Other observations

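Low genes outside the 10 regulators were read by library in the same way. *Pdx1* had 35 reads (exact Poisson 95% interval 24.4 to 48.7), from A to J 3, 6, 1, 10, 6, 5, 1, 3, 0 and 0. *Tbx19*, a T-box gene of the pituitary, had 10 reads in 6 libraries (interval up to 18.4 reads). *Tbx21*, a T-box gene of lymphocytes, had 44 reads (32.0 to 59.1) and *Tbx10* had 56 (42.3 to 72.7), both with reads in all 10 libraries.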
